A study of Mus musculus with 18 samples.

Results

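The genes described here are 34 genes of microglia and macrophages, the phagocytes that reside in or enter the retina. They were taken from a written list of gene names, and all 34 were found among the 78239 genes of the count tables. Of these, 6 are genes of resting (homeostatic) microglia, 12 mark myeloid cells of any state (myeloid identity) and 16 are linked to activation and phagocytosis. RNA-seq was performed on 10 retinas of wild-type mice, which had received a subretinal injection of AAV at postnatal days 29 to 32 and were analysed 3 weeks later (3 wpi). AAV::nsHif1a carried a Myc-tagged, normoxia-stable mouse Hif1a (nsHif1a), a hypoxia-inducible transcription factor that escapes degradation in normal oxygen, and AAV::eGFP carried eGFP as control. Both transgenes were driven by the mOP promoter, which is active in rods, so that no microglial cell was targeted, and the injection transduced only a portion of the retina. There were 5 retina libraries per group. In addition, 661W cells, a photoreceptor-like mouse line, were transfected with CMV-driven nsHif1a or eGFP plasmids and analysed after 20 h, with 4 libraries per group. The sample labels give the strain as C57BL/6J, whereas the methods of the study name 129S6, and ages beyond the days of injection were not given for single libraries.

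Microglia survey the neural retina from the plexiform layers and depend on the receptor encoded by Csf1r. In the resting state they express receptors for fractalkine and nucleotides (Cx3cr1, P2ry12). When photoreceptors are damaged, microglia and blood-derived macrophages gather in the outer retina, take up debris and switch on lysosomal, lipid-handling and antigen-presenting genes, while several resting genes are known to decline. The transcription factors PU.1 (Spi1) and IRF8 (Irf8) maintain the myeloid state.

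The libraries held between 12898220 and 17809585 counts. In counts per 1000000 (CPM), a floor of 3 counts was 0.168 to 0.233, a limit that covers counting error only. Total Hif1a was at 638 to 698 CPM in the eGFP retinas and 642 to 729 CPM in the nsHif1a retinas (log2FC 0.05, adjusted p = 0.504 by limma), but the HIF target Egln3, chosen after its values were seen, was at 7.49 to 11.95 CPM against 20.99 to 72.5 CPM (log2FC 2.38, adjusted p = 0.00201 by limma). Nothing in the labels says that the retinas differed in sex, yet eGFP libraries 3, 4 and 5 held 1 to 3 counts of Xist and 2701 to 3509 counts of Y-linked genes, whereas the other 7 retina libraries held 19492 to 28595 counts of Xist and 0 of Y-linked genes. All 5 nsHif1a libraries were of the latter kind. Library eGFP 2 stood apart from the rest of its group in immune genes, as given below. The 6 rod genes listed as markers summed to 32702 to 46474 CPM in the retinas and to 1.43 to 3.69 CPM in 661W cells.

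Because the members were listed as genes of microglia and macrophages, 250 bases were searched on both strands for AGGAAGT, a core of ETS factor sites such as that of PU.1. They were the bases upstream of the start of the main (canonical) transcript of each gene (gencode M39, GRCm39), which can lie within the annotated gene. It was found upstream of 6 of the 34 members (17.6%) and of 7.10% of 21723 protein-coding genes. All 6 were among the 23 members with under 1 CPM in eGFP 661W cells (26.1%), namely Cst7, Fcgr1, Lyz2, P2ry12, Fcer1g and Ptprc, and none of the other 11 members had a match. The longer GAGGAAGT, which contains the former, was upstream of Fcer1g only (2.08% of all genes). The core of hypoxia response elements, ACGTG or GCGTG, was upstream of 11 members (32.4%) against 41.3% of all genes. These counts are descriptions of letters in the windows and not of binding. Stretches of 60 bases are shown for the matches that lie outside annotated exons, on the strand of the gene, with the motif or its reverse complement in capitals. Cst7 (chr2:150412224-150412283) and Fcgr1 (chr3:96201339-96201398) end at the base before the start of the gene, Fcer1g lies at chr1:171062244-171062303, and the distal and the proximal match of Ptprc lie at chr1:138103124-138103183 and chr1:138103069-138103128. Ptprc is on the minus strand and its annotated gene begins at 138103446, so both its stretches lie within the gene.
Cst7: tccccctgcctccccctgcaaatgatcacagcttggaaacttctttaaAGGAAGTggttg
Fcgr1: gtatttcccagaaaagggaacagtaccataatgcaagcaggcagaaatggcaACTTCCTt
Fcer1g: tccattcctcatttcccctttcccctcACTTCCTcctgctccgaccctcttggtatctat
Ptprc, distal: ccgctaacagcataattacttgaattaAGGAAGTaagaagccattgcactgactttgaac
Ptprc, proximal: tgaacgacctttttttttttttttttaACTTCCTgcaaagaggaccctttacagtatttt

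As a check of specificity, the levels of the members in eGFP 661W cells were examined. In these cells 23 of the 34 members were under 1 CPM, 6 had no count in any of the 4 eGFP libraries (Siglech, Itgam, Ly86, Tyrobp, Trem2 and Cst7), and 5 of these had none in any of the 8 libraries. The other 11 members were expressed by the line itself. Per kb of exon, Lgals3 (galectin-3) was at 189 CPM, Ctsd (cathepsin D) at 123, Spp1 (osteopontin) at 110 and Gpnmb (a lysosomal glycoprotein) at 70.2 in the cells, against 6.97, 88.4, 4.56 and 2.48 CPM per kb in eGFP retinas. Cd68, a lysosomal marker of macrophages, and Tmem119, a marker of resident microglia, were also higher in the line, at 8.50 and 5.37 CPM per kb against 1.61 and 1.09 CPM per kb in the retina. On the CPM scale, 28 of 34 members were higher in eGFP retinas than in eGFP 661W cells. Retina and cells were scaled separately, so that these levels were set side by side and not tested. The line held few rod transcripts and the retina holds many cell types, so a level in the line does not settle which cells express a gene in the retina.

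**Figure D1:**
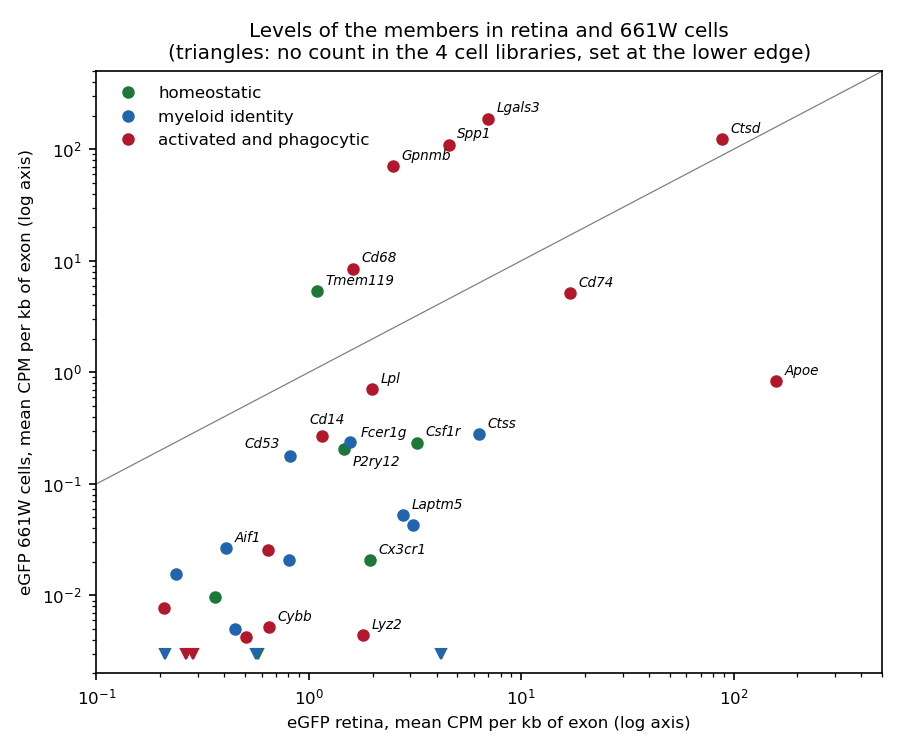
Mean level of each of the 34 members in eGFP retinas (x axis) and eGFP 661W cells (y axis), in CPM per kb of exon on log axes, coloured by class; the line marks equal levels. Lgals3, Spp1, Gpnmb, Ctsd, Cd68 and Tmem119 lie above the line, and the 6 triangles at the lower edge are members with no count in the cells.

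The main question was whether these genes changed in the retina with nsHif1a in rods. No member passed the test: of the 33 that passed the count filter, 0 were called higher and 0 lower at an adjusted p under 0.05 and an absolute log2FC above 0.5 by limma. Of all 18859 genes tested, 1.08% were called higher and 0.912% lower. At an unadjusted p under 0.05 there were 10 members by limma, 2 by edgeR and 2 by DESeq2, with 21.7% of all genes at that level by limma. An adjusted p under 0.05 alone was reached by 0 members and by 5.79% of all genes. In 32 of 33 the log2FC was positive (49.4% of all genes), but it was positive in 9 only when the presence of Xist counts (Xist class) was a covariate. In 26 of 33 it was above 0.5 (4.62% of all genes). The median log2FC of the members was 0.80, beside -0.002 for all genes, and the median SE was 0.45, beside 0.09 for all genes. In no member did the 5 nsHif1a libraries lie entirely above the 5 eGFP libraries (3.25% of all genes) or entirely below them (2.69% of all genes). Retinas were analysed whole, so fewer cells of a type and less RNA per cell cannot be told apart, and the same holds for more.

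**Figure D2:**
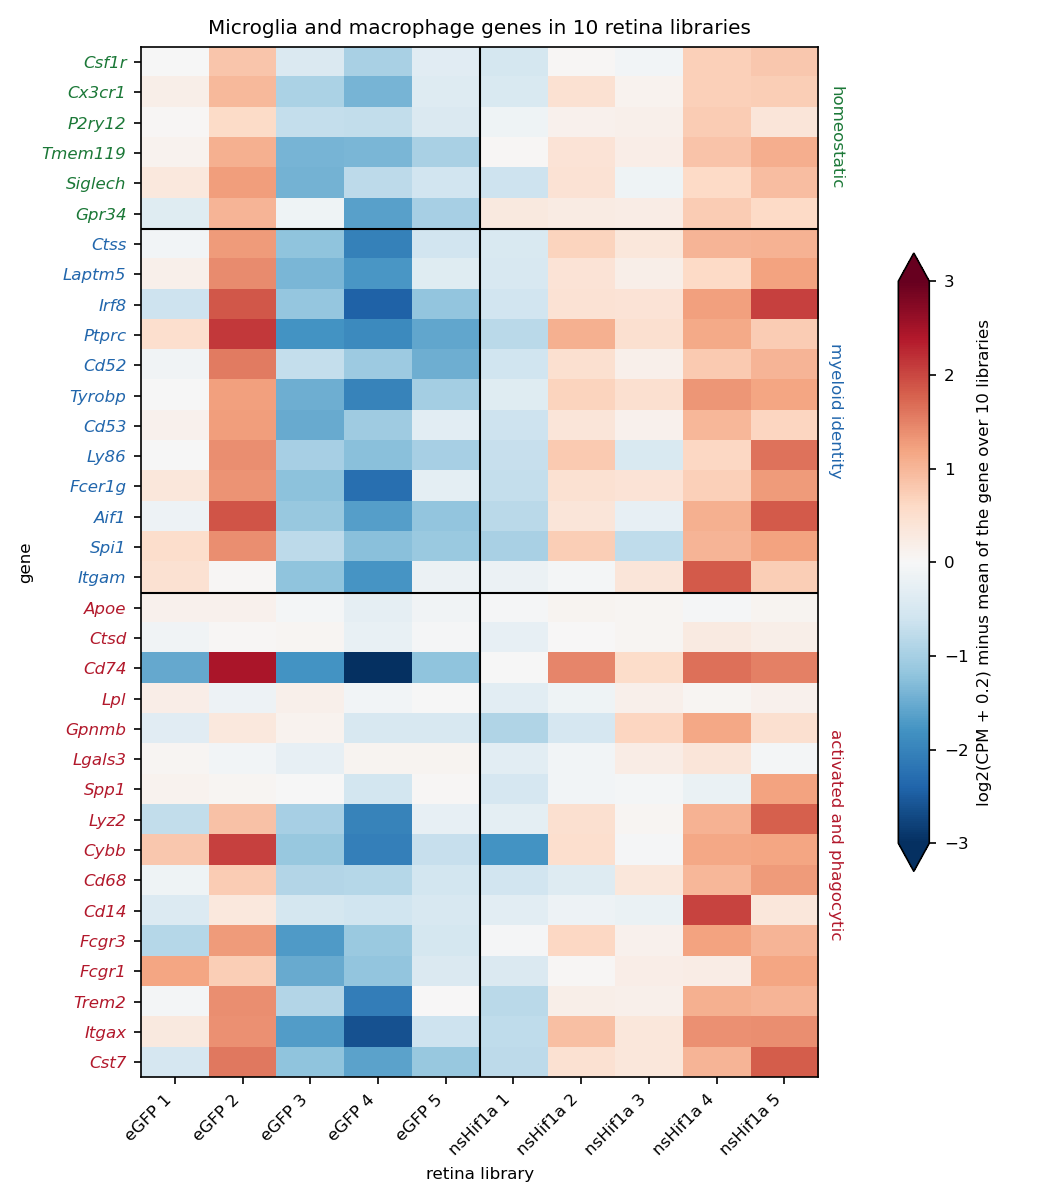
Level of each of the 34 members (y axis, grouped by class) in each retina library (x axis), as log2(CPM + 0.2) minus the mean of the gene over the 10 libraries; red is above and blue below the mean, and colours end at 3. Library eGFP 2 is red in most genes, eGFP 3 and eGFP 4 are mostly blue, and nsHif1a 1 is the lowest of its group in 32 of the 33 genes tested.

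Homeostatic genes. Cx3cr1, the fractalkine receptor, was at 10.8, 18.8, 4.83, 3.502 and 7.23 CPM in eGFP libraries 1 to 5 and at 6.82, 13.1, 10.2, 15.8 and 15.97 CPM in nsHif1a libraries 1 to 5. The groups overlapped, with the highest value of all in eGFP 2, and the log2FC of 0.69 (SE 0.36) had an adjusted p of 0.288 by limma. P2ry12, a purinergic receptor that guides the processes of microglia, was at 5.43, 7.95, 3.16, 3.11 and 3.91 CPM against 4.87, 5.80, 5.96, 9.20 and 6.86 CPM. All 5 nsHif1a libraries were above the eGFP median, and the log2FC of 0.54 (SE 0.23) had an adjusted p of 0.204 by limma. Tmem119 was at 4.36, 8.66, 1.42, 1.45 and 1.96 CPM against 4.12, 5.42, 4.68, 7.43 and 8.79 CPM. Its nsHif1a libraries were again all above the eGFP median, but eGFP 2 was above 4 of them (log2FC 1.10, SE 0.39, adjusted p = 0.123 by limma). For P2ry12 and Tmem119 that median was the value of eGFP 5, a library with Y-linked counts. Gpr34, a lysophosphatidylserine receptor, had a log2FC of 1.09 (SE 0.42), with 1.49 to 2.25 CPM in the nsHif1a libraries and 0.264 to 1.11 CPM in 4 eGFP libraries, beside 2.71 CPM in eGFP 2. The smallest change was that of Csf1r, whose product is the receptor for the growth factors CSF1 and IL-34 (log2FC 0.36, 95% confidence interval -0.27 to 0.998). Siglech, a lectin of resting microglia, was intermediate (log2FC 0.56, SE 0.43). No homeostatic gene had a negative log2FC and the median of the class was 0.62, but with the Xist class as covariate 5 of the 6 were negative and the median was -0.23.

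The genes of myeloid identity had the largest class median, 1.09, and all 12 were positive (0.69 to 1.51). The median was 0.56 by both edgeR and DESeq2 and 0.48 with a replicate block, again with 12 positive, and with the Xist class as covariate 11 were negative. Tyrobp encodes the adaptor DAP12, through which TREM2 signals. It was at 3.21, 7.95, 1.05, 0.661 and 1.51 CPM in eGFP libraries 1 to 5 and at 2.47, 5.29, 4.61, 8.45 and 7.63 CPM in nsHif1a libraries 1 to 5. Apart from eGFP 2 and eGFP 1, the eGFP libraries lay below every nsHif1a library, and the log2FC of 1.48 (SE 0.50) had the smallest adjusted p of the class, 0.111 by limma. Irf8, a transcription factor needed for microglia, had the largest log2FC of the class, 1.51 (SE 0.63, adjusted p = 0.185 by limma). It reached 27.1 CPM in eGFP 2 against 1.19 to 4.66 CPM in the other eGFP libraries, and 4.87 to 31.1 CPM in the nsHif1a libraries. Spi1, which encodes PU.1, was lower in level and less changed, at 0.396 to 3.49 CPM against 0.525 to 3.08 CPM (log2FC 0.69, SE 0.63). Ctss (cathepsin S) was the most abundant gene of the class and was at 34.01, 86.4, 15.4, 8.59 and 24.02 CPM against 25.9, 57.3, 45.6, 72.4 and 74.1 CPM. All its nsHif1a values exceeded the eGFP median, which was the value of eGFP 5, a library with Y-linked counts (log2FC 1.11, SE 0.45, adjusted p = 0.175 by limma). Ptprc, which encodes the leukocyte antigen CD45, had a log2FC of 1.40 (SE 0.66), with 15.1 CPM in eGFP 2 and 0.727 to 4.74 CPM in the other eGFP libraries. Aif1 (IBA1, the usual stain for microglia) had a log2FC of 1.09 (SE 0.66) and Fcer1g, the common chain of Fc receptors, 1.08 (SE 0.61). For Itgam, the integrin CD11b, the log2FC was 1.13 (SE 0.52), and nsHif1a 4 was its highest library, with 5.52 CPM. Of the 50-base words in Itgam transcripts, 63.5% also occur in the overlapping transcript Gm49368, so its counts are less certain. Laptm5, Cd53, Cd52 and Ly86, all leukocyte membrane or secreted proteins, had log2FC values of 0.80, 0.70, 0.93 and 0.88.

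Among the activated and phagocytic genes the values were spread widely, from -0.04 to 2.20. Cd74, the invariant chain of MHC class II, had the largest log2FC of all members. It was at 10.9, 177, 9.16, 3.57 and 13.7 CPM in eGFP libraries 1 to 5 and at 32.02, 89.4, 46.7, 101 and 91.8 CPM in nsHif1a libraries 1 to 5. Thus 4 eGFP libraries were below every nsHif1a library and eGFP 2 was above all, and the log2FC of 2.20 (SE 0.68) had an adjusted p of 0.0823 by limma, the smallest of all members. Itgax, the integrin CD11c of dendritic cells and activated microglia, was at 1.30, 2.97, 0.186, 0 and 0.602 CPM against 0.525, 2.08, 1.35, 3.00 and 3.01 CPM (log2FC 2.01, SE 0.88). It was the member of lowest level per kb and its interval was wide (0.11 to 3.91). Fcgr3, a low-affinity receptor for immunoglobulin G, was at 0.557 to 1.51 CPM in 4 eGFP libraries and 5.75 CPM in eGFP 2, against 2.17 to 5.45 CPM (log2FC 1.27, SE 0.44, adjusted p = 0.117 by limma). Lyz2, the lysozyme of macrophages, had a log2FC of 1.21 (SE 0.47) with its highest value, 26.2 CPM, in nsHif1a 5. Trem2, a lipid-sensing receptor of phagocytes, was at 0.132 to 3.49 CPM against 0.600 to 2.73 CPM (log2FC 0.83, SE 0.63). Cd14, the co-receptor for lipopolysaccharide, was at 1.95 to 3.21 CPM in 4 nsHif1a libraries and 10.8 CPM in nsHif1a 4 (log2FC 0.61, SE 0.41). Fcgr1, the high-affinity receptor for immunoglobulin G, had a log2FC of 0.55 (SE 0.50). The NADPH oxidase subunit gene Cybb had 0.61 (SE 0.74), but with edgeR and DESeq2 its value was -0.0013 and -0.0052. Cst7, which encodes cystatin F, did not pass the count filter, with 3, 25, 1, 0 and 1 counts in the eGFP libraries and 2, 10, 8, 15 and 30 counts in the nsHif1a libraries.

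The remaining 7 activated genes were at 1 CPM or more in eGFP 661W cells, as was Cd74 (12.9 CPM), and their log2FC values in the retina ran from -0.04 to 0.62. Apoe, the lipid carrier made in retina mainly by Müller glia, was the member of highest level per kb, with 644 ± 74.8 CPM in the eGFP retinas and 672 ± 30.2 CPM in the nsHif1a retinas (SD, n = 5). Its log2FC of 0.09 had a 95% confidence interval of -0.06 to 0.24. Ctsd was at 245 ± 20.2 and 264 ± 34.2 CPM (log2FC 0.11, interval -0.07 to 0.28). Lgals3 was at 16.1 ± 1.60 and 16.9 ± 3.17 CPM (0.05, interval -0.20 to 0.30), and Lpl, lipoprotein lipase, was the only member with a negative value (-0.04, interval -0.25 to 0.16). For these 4 genes the intervals end below a log2FC of 0.5. Spp1 was at 9.12 to 14.5 CPM against 9.45 to 31.1 CPM, with the highest value in nsHif1a 5 and the other 4 nsHif1a libraries no higher than 12.9 CPM (log2FC 0.10, SE 0.23). Cd68 differed by 0.62 (SE 0.41). Gpnmb was at 12.9 to 22.6 CPM against 9.60 to 40.5 CPM (0.34, SE 0.34). Gpnmb is also a gene of pigmented cells, and the summed level of 10 pigment epithelium genes ran from 65.6 to 983 CPM over the 10 retinas, with the highest sum in nsHif1a 4, where Gpnmb was highest. Across the 10 libraries its r with this sum was 0.49, and the part of pigmented cells in its values was not tested. Gpnmb was not alone in this, since Lpl had an r of 0.49, Lgals3 0.42 and Ctsd 0.39, while most other members had negative values, down to -0.59 (Apoe).

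Homeostatic and activated genes were then compared as classes. The median log2FC was 0.62 for the homeostatic and 0.61 for the activated class, a difference of -0.01. The mean log2 CPM of the activated class minus that of the homeostatic class was 0.861 ± 0.181 in eGFP and 0.844 ± 0.163 in nsHif1a retinas (SD, n = 5), so that the difference of -0.0177 was smaller than the spread between libraries. By level in 661W cells, the median was 0.83 over the 7 tested activated genes under 1 CPM in 661W cells and 0.10 over the 8 at or above it. With the genes under 1 CPM only, the medians of the homeostatic, identity and activated classes were 0.62, 1.08 and 0.83. Leaving out eGFP 4, the lowest library, lowered the 3 class medians to 0.33, 0.57 and 0.16. No test was made on these medians, since the lists were chosen with earlier results known.

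The members varied together across libraries. Over the 10 retina libraries, the r of each of the 22 tested members under 1 CPM in 661W cells with the mean log2 CPM of the others was 0.59 to 0.99, with a median of 0.94. The 11 other members had r values of 0.18 (Lpl) to 0.99 (Ctss), with a median of 0.78. These are descriptions over libraries that share their groups, and no p was computed. Library eGFP 2 was the highest of its group in 27 of 33 members and the highest of all 10 in 17. Library eGFP 4 was the lowest of all 10 in 22 members. Library nsHif1a 1 was the lowest of its group in 32 of 33 members, and the highest of that group was nsHif1a 5 in 19 and nsHif1a 4 in 13 members. Egln3 was at 20.99 CPM in nsHif1a 1 and at 55.5, 39.02, 42.5 and 72.5 CPM in nsHif1a 2 to 5, so that the lowest and the highest library for the HIF target were also the lowest and, most often, the highest of the group for the members. Of 4 other HIF targets, all were lowest in nsHif1a 1 within the group and Adm and Vegfa were highest in nsHif1a 5, whereas Bnip3 (271 against 270 CPM) and Ldha (1060 against 979 CPM) were higher in nsHif1a 2 than in nsHif1a 5. The part of the HIF response in this order was not tested.

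**Figure D3:**
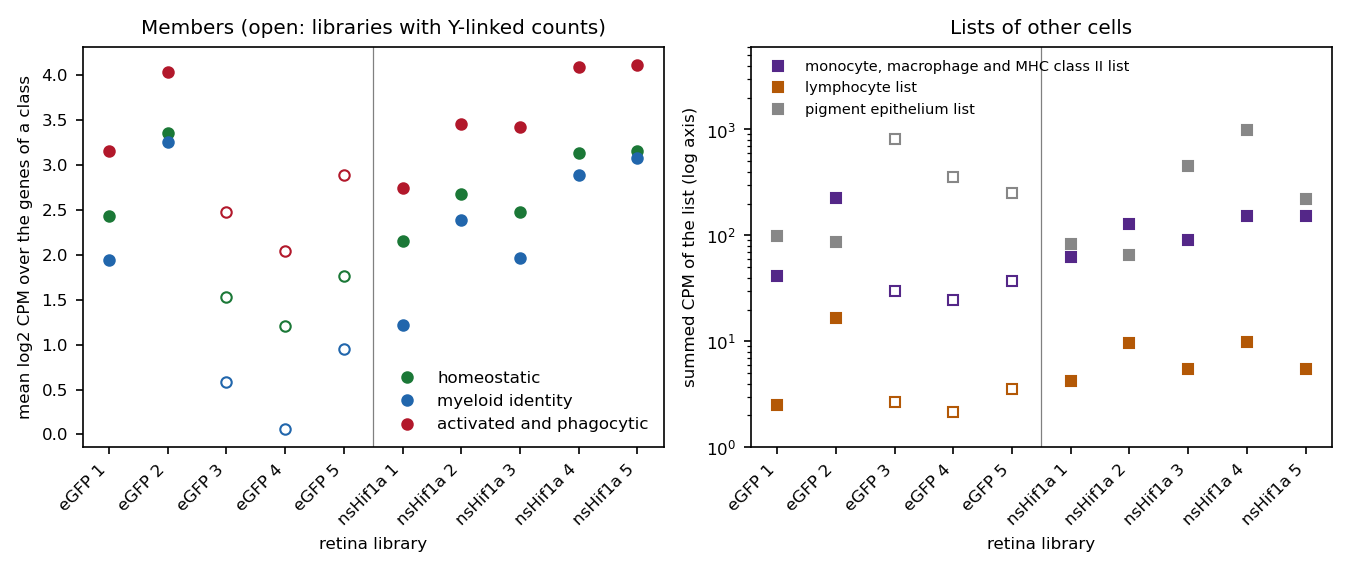
Left, mean log2 CPM over the genes of each class in each retina library; right, summed CPM of 3 lists of other cells on a log axis. Open symbols are the 3 libraries with Y-linked counts, all in the eGFP group; eGFP 2 is the highest eGFP library in all 3 classes and in the lymphocyte and the monocyte and macrophage lists, with 16.8 and 224 summed CPM.

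The lymphocyte and the monocyte and macrophage lists were, like most members, highest in eGFP 2. The summed level of 12 lymphocyte genes was 16.8 CPM in eGFP 2, 2.2 to 3.54 CPM in the other eGFP libraries and 4.27 to 9.95 CPM in the nsHif1a libraries. Only 2 of these 12 genes passed the count filter in the retina. In the photoreceptor-like cell line, scaled separately, the same genes summed to 1.95 to 2.94 CPM with eGFP and 3.91 to 4.99 CPM with nsHif1a. Low sums in the retina are therefore no measure of lymphocytes, and the part of other cells in them was not tested. The summed level of 15 genes of monocytes, perivascular macrophages and MHC class II was 224 CPM in eGFP 2, 24.4 to 41.5 CPM in the other eGFP libraries and 62.3 to 152 CPM with nsHif1a. The latter list was carried by the MHC class II chains H2-Aa, H2-Ab1 and H2-Eb1, which summed to 181 CPM in eGFP 2, 4.76 to 14.0 CPM in the other eGFP libraries and 39.5 to 124 CPM with nsHif1a. The other 12 genes of the list summed to 43.0, 18.8 to 28.3 and 22.8 to 35.9 CPM, so that the latter ranges overlapped. Lyve1, a marker of resident macrophages and lymphatic vessels, had a log2FC of -0.21 (SE 0.08), Ly6c2, of inflammatory monocytes, was at 0.301 to 4.52 CPM in eGFP and 0.525 to 1.43 CPM in nsHif1a libraries, and Cd209a had no count in any retina. Granulocyte genes were near absent (0 to 1.43 CPM summed over 8 genes). With the summed lymphocyte level as a covariate, chosen after seeing the data, the medians of the homeostatic, identity and activated classes were 0.19, 0.17 and 0.14, 28 of 33 members were positive and 0 were called by limma. Apart from eGFP 2, this covariate was itself higher in every nsHif1a library than in every eGFP library. The fit therefore takes out part of the group difference as well, and its medians cannot tell the covariate from the group. The part of blood-derived cells in the members' values was not tested.

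Without eGFP 2, an alternative that leaves 4 against 5 libraries, 10 of 33 members were called higher and 0 lower by limma, beside 1.64% of 19064 genes called higher. These were the homeostatic P2ry12, Tmem119 and Gpr34, the identity genes Ptprc, Cd52, Irf8, Tyrobp and Ctss, and Cd74 and Fcgr3. Their log2FC values ran from 0.75 (P2ry12) to 2.97 (Cd74, adjusted p = 0.00659 by limma), and the medians of the classes were 0.99, 1.495 and 0.90. In 5 members the groups no longer overlapped (Gpr34, Irf8, Cd14, Cd74 and Fcgr3), beside 4.58% of all genes. At an unadjusted p under 0.05 there were 24 members, beside 23.3% of all genes. Apoe (0.14), Ctsd (0.12), Lgals3 (0.03), Spp1 (0.14) and Lpl (-0.06) had small values here too. No other single library, when left out, gave a call among the members. The library was left out because it stood apart, which was seen in these same values, so the calls without it are no independent evidence.

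**Figure D4:**
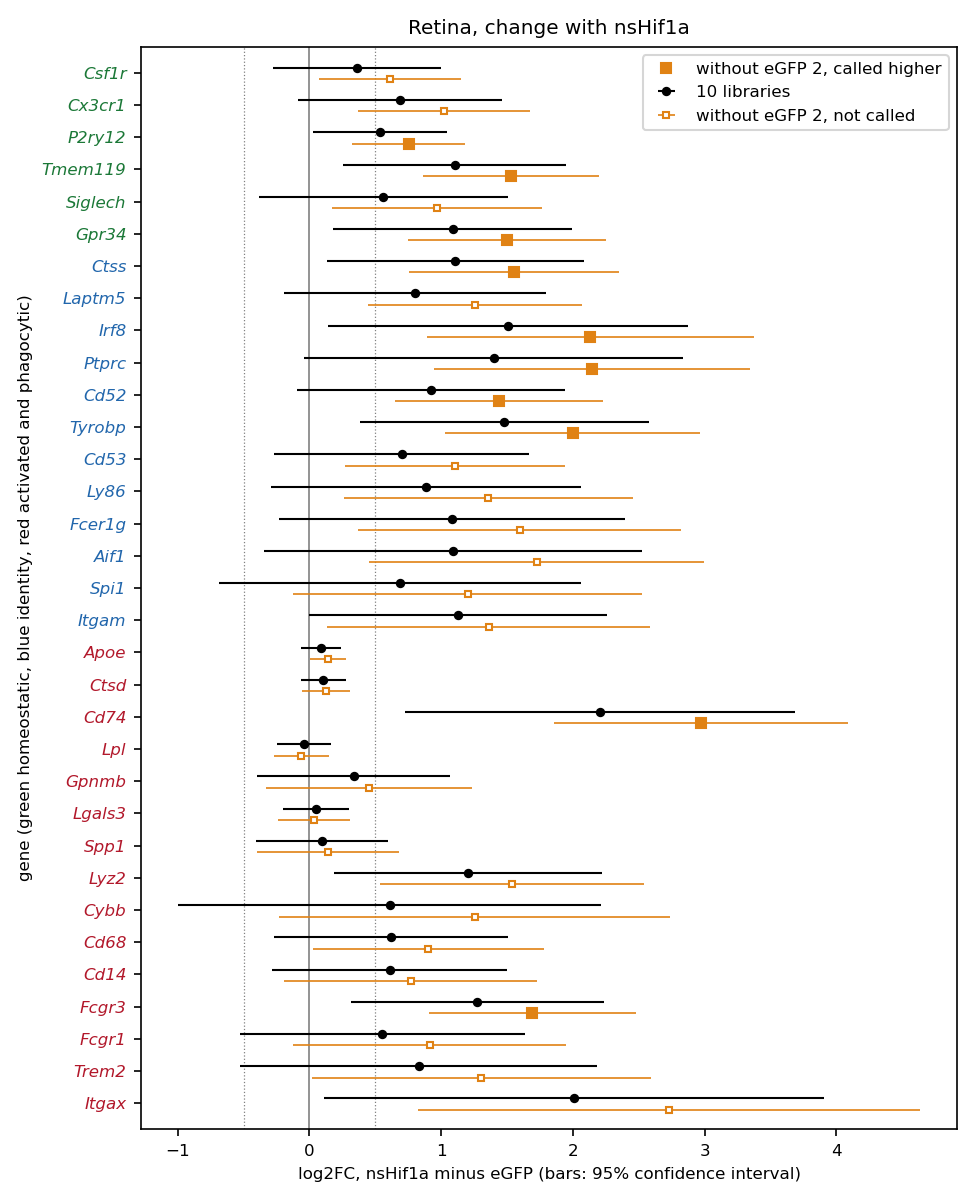
Log2FC of nsHif1a against eGFP for the 33 members tested (y axis), with 95% confidence intervals, from all 10 libraries (black) and without eGFP 2 (orange, filled where called higher); dotted lines mark a log2FC of 0.5 in either direction. With all 10 libraries 32 of 33 values are above 0 and none is called; without eGFP 2, 10 are called. With the Xist class as covariate, not drawn here, 9 of 33 were above 0.

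The difference between the groups also depended on the libraries with Y-linked counts, which were the 3 lowest eGFP libraries in every class mean. Among the 7 libraries with Xist counts, only eGFP 1 and eGFP 2 were controls. Tyrobp, for example, was at 3.21 and 7.95 CPM there and at 2.47 to 8.45 CPM in the nsHif1a libraries. In these 7 libraries the class medians were -0.22, -0.43 and -0.05 for the homeostatic, identity and activated genes, 9 of 33 members were positive and 0 were called by limma. With the Xist class as a covariate in all 10 libraries, the medians were -0.23, -0.44 and -0.04, again with 9 positive and 0 called by limma. With this covariate and without eGFP 2 at the same time, 24 of 33 were positive, the medians were 0.18, 0.29 and 0.36, and 0 were called by limma. The nsHif1a group held no library with Y-linked counts, so that, for the eGFP libraries 3, 4 and 5, sex and group cannot be told apart.

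**Figure D5:**
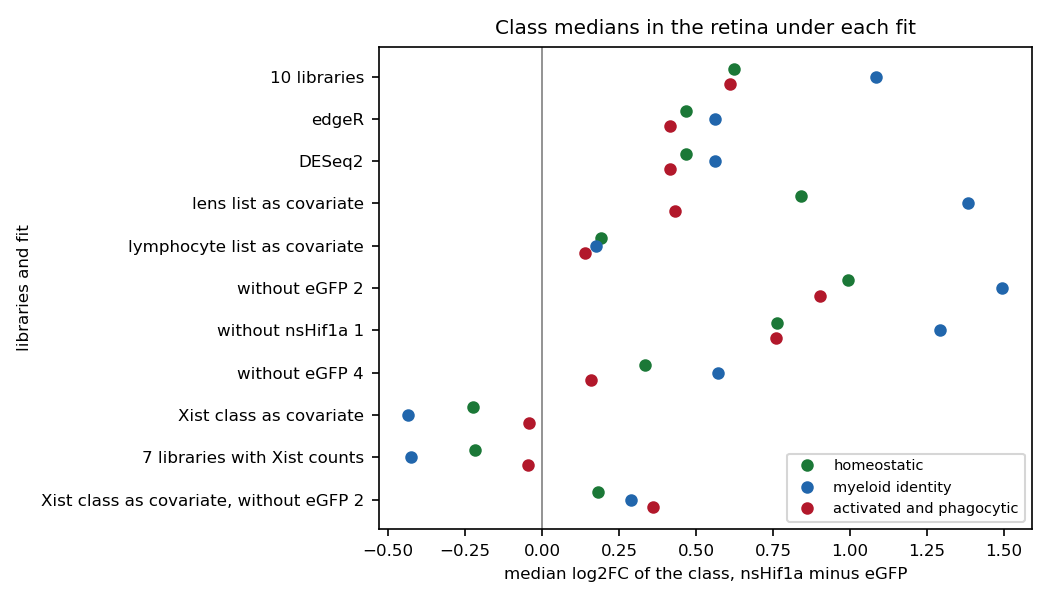
Median log2FC of the homeostatic, identity and activated class (x axis) under 11 choices of libraries and fit (y axis). All medians are above 0 except in the fits with the Xist class as covariate and all libraries or with the 7 libraries that held Xist counts, where all are below 0.

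Genes of the same cells that are no members were examined from written lists. Of 19 other microglial genes found, 16 were tested, 0 were called by limma in either direction (8 at an unadjusted p under 0.05), and 13 were positive. At an unadjusted p under 0.05 there were 21.7% of all genes by limma, a share that also stands beside the lists below. The complement genes C1qb, C1qc and C1qa, whose products tag synapses and debris, had log2FC values of 1.40, 1.33 and 1.21 (adjusted p of 0.140 to 0.184 by limma), and the ribonuclease gene Rnase4 1.08 (adjusted p = 0.0768). C1qa was at 15.1, 32.8, 5.07, 3.17 and 9.64 CPM in eGFP and at 9.07, 24.4, 17.1, 32.9 and 35.7 CPM in nsHif1a libraries 1 to 5, so that eGFP 2 and nsHif1a 5 were the highest of their groups. Without eGFP 2, 5 of these 16 were called higher (C1qb, C1qc, P2ry13, Selplg and Vsir), beside 1.64% of all genes. The library was left out for immune gene values seen in these same data, so these calls are no independent evidence either.

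Of 20 further activation genes, 16 were tested and 0 were called by limma (3 at an unadjusted p under 0.05). The largest values were those of Fabp5, a fatty acid binding protein (1.15, SE 0.55), Clec7a (dectin-1, 1.10), Cd84 (0.96) and Ccl6 (0.82). Fabp5 was at 65.8 to 203 CPM in eGFP and at 399, 137, 475, 730 and 56.5 CPM in nsHif1a libraries 1 to 5, and the 3 nsHif1a libraries of highest level were also those with the most lens transcripts. Cd63, a tetraspanin of lysosomes, passed the p threshold only (log2FC 0.32, adjusted p = 0.0299 by limma). Of 16 signals to or from microglia, 13 were tested and 0 called by limma (3 at an unadjusted p under 0.05). Cd47, the signal against phagocytosis, was at 137 to 159 CPM in eGFP and 161 to 203 CPM in nsHif1a retinas, with no overlap, and passed the p threshold with a log2FC of 0.29 (adjusted p = 0.0105 by limma). Ccr2, the receptor of monocytes, had a log2FC of 1.65 (SE 0.84), its ligand Ccl2 0.53 (SE 0.61), the complement receptor gene C3ar1 0.49 (SE 0.54) and Tlr4 -0.36 (SE 0.24).

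Over all the written lists of other genes, 1 gene was called with all libraries, H2-Ab1, a chain of MHC class II. It was at 5.58, 63.4, 3.40, 2.51 and 5.12 CPM in eGFP libraries 1 to 5 and at 17.4, 40.7, 30.4, 43.5 and 59.4 CPM in nsHif1a libraries 1 to 5. Only eGFP 2 overlapped with the nsHif1a libraries (log2FC 2.45, SE 0.60, adjusted p = 0.0323 by limma). It was called among 9 tested genes of the monocyte, macrophage and MHC class II list, of which Ciita, H2-Aa and H2-Eb1 had log2FC values of 2.94, 2.59 and 1.99 (adjusted p of 0.0699 to 0.0946 by limma). Without eGFP 2, left out for values seen in these same data, all these 4 were called higher, beside 1.64% of all genes. Of the lymphocyte genes, Lck had a log2FC of 0.42 (SE 0.31, adjusted p = 0.464 by limma). Müller glia genes were not called (0 of 8 by limma, 3 at an unadjusted p under 0.05), with Gfap, the marker of gliosis, at 0.73 (SE 0.28) and Slc1a3 at 0.21 (adjusted p = 0.0304 by limma). Endothelial genes had 0 calls of 6 by limma (3 at an unadjusted p under 0.05), with Emcn at 0.85 (SE 0.37) and Kdr at 0.26 (adjusted p = 0.0490 by limma). Rod genes had 0 calls of 6 by limma (5 at an unadjusted p under 0.05), but 3 passed the adjusted p threshold. Among these were Gnat1 and Sag, of the phototransduction pathway, with log2FC values of -0.31 and -0.24 (adjusted p of 0.0214 and 0.0155 by limma). The 6 lens genes, the 9 pigment epithelium genes and the 4 haemoglobin genes tested had 0 calls by limma (6, 0 and 0 at an unadjusted p under 0.05), with medians of 2.43, -0.18 and -0.41. Lens transcripts summed to 634 to 2817 CPM in eGFP and to 920 to 18956 CPM in nsHif1a retinas. With the mean log2 CPM of the 6 lens genes as a covariate, 30 of 33 members were positive and 0 were called by limma.

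In 661W cells, where Hif1a itself was at 150 to 164 CPM with eGFP and at 1222 to 1954 CPM with nsHif1a (log2FC 3.26, adjusted p = 1.18e-05 by limma), the 11 members at 1 CPM or more were tested. None was called in either direction by limma. At an unadjusted p under 0.05 there were 0 members by limma and 1 each by edgeR and DESeq2, with 20.7% of all genes by limma. The calls stood beside 1.21% of 15962 genes called higher and 0.0626% lower, and the smallest adjusted p of a member was 0.298 by limma. The libraries formed 2 sets, 1 with 2 and 3 with 4, and 5 members differed by over 1.5 times in the first set and 0 in the second. Tmem119 was at 20.1, 19.9, 15.7 and 14.5 CPM in eGFP libraries 1 to 4 and at 43.5, 42.3, 14.1 and 15.5 CPM in nsHif1a libraries 1 to 4. Lpl was at 8.49 to 9.31 CPM against 20.99 and 22.8 CPM in the first set, and at 7.96 to 8.88 CPM against 6.78 and 9.84 CPM in the second. Cd68 and Csf1r were lower with nsHif1a in the first set, by ratios of 0.466 and 0.173, and Ctss was higher by a ratio of 1.83. Total Hif1a was at 1222 and 1242 CPM in nsHif1a libraries 1 and 2 and at 1954 and 1825 CPM in libraries 3 and 4. What distinguishes the sets is not given in the labels. Without nsHif1a library 3, or without nsHif1a library 4, limma called 7 members, of which Tmem119, Ctss and Lpl were higher and P2ry12, Csf1r, Cd68 and Lgals3 lower with nsHif1a. In these fits 7.43% and 7.39% of all genes were called higher and 4.19% and 4.22% lower. P2ry12 was not among the 11 members tested with all cell libraries. It passed the filter here through its eGFP libraries, with 6 to 12 counts there and 0 to 8 with nsHif1a, so its call rests on low counts.

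The nsHif1a effect in the retina minus that in 661W cells was tested over all 18 libraries. Of 33 members, 0 had an adjusted p under 0.05 by limma (2 at an unadjusted p under 0.05), beside 2.33% of 20999 genes. Only 11 members had passed the count filter in the cells alone. The rest were near or at 0 counts there (Tyrobp and Trem2, for example, had none), so for them the test could not tell whether the effects differ. The nearest was P2ry12, with a difference of 2.62 (SE 0.74, adjusted p = 0.0695 by limma), a gene at 0.653 CPM in eGFP cells and 0.175 CPM in nsHif1a cells. DESeq2 called this gene alone (adjusted p = 0.0108). For Cd74 the difference was 2.52 (SE 1.08), and for Apoe 0.08 (SE 0.34). Without cell library nsHif1a 3 or 4, 5 of the members were called by limma (P2ry12, Cd68, Ctsd, Lgals3 and Lpl), beside 14.4% and 14.5% of all genes, a background from which the members' count cannot be told apart. Without retina library eGFP 2, 2 were called (P2ry12 and Cd74), beside 2.83% of all genes.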

How the data were processed

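Libraries were made with a stranded mRNA kit, and, per the methods and the labels, the authors used Rsubread 2.18.0 to align reads to GRCm39 and featureCounts, set to the antisense strand, to count reads over genes of gencode M36 (basic set). Unfiltered whole-number counts were deposited by the authors, in 1 table per experiment. Here, genes were filtered with filterByExpr (minimum count 10), scaled by TMM (edgeR 4.0.16) and fitted with voomWithQualityWeights, lmFit and eBayes (limma 3.58.1, R 4.3.3) in 10 retina libraries or 8 cell libraries, the functions that the study names. Adjusted p-values are Benjamini-Hochberg values over all genes tested, and calls need an absolute log2FC above 0.5. The interaction was fitted over 18 libraries with a call at adjusted p under 0.05 alone. CPM are TMM-scaled, per kb values divide by exon length, and log2 CPM use a prior count of 2. edgeR's quasi-likelihood test and DESeq2 1.42.0, other scalings and filters, covariates and left-out libraries were alternatives, and the tests were checked on simulated counts.

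Gene names and starts are from gencode M39, which held 78168 of 78239 identifiers; coordinates are GRCm39. The members, the lists and the rules were chosen with earlier results of these data known. All members were named, and of each other list the genes past both thresholds and up to 4 with the largest absolute log2FC; genes at an adjusted p under 0.05 alone, the genes called without eGFP 2 and Egln3 were named after their values were seen. Fcrls of the microglial list found no match. Some genes of the lymphocyte and rod lists are not reported here by name. Samples were grouped by their titles. Whether libraries came from separate mice or cultures is not stated in the labels, so p-values measure the spread between these samples. Replicates of a group differed beyond sampling noise. In 661W cells, equal replicate numbers deviated together (r of 0.227 to 0.269 for the 4 pairs). The libraries also formed 2 sets in both groups, and pairs and sets were not told apart. The main fits and the interaction held no replicate block, and a cell fit with one changed no call among the members.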

Additional observations from a re-analysis of the deposited data

Results flagged for a closer look

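In each group of 4 or 5 libraries, the gap between the highest or the lowest library and its neighbour was divided by the range of the group, and gaps past the 95% limit of Dixon's test are listed here. Chance marks about 1 in 20 groups if values are normally distributed, which was not checked for CPM, and 19 of 126 were marked. Of these, 12 had eGFP 2 as the highest eGFP retina. The members among them were Aif1 (0.827), Ptprc (0.720), Cd52 (0.780), Irf8 (0.866), Ly86 (0.741), Cd14 (0.843), Cd74 (0.941), Fcgr3 (0.817) and Cst7 (0.858), and the summed lists were those of microglial signals (0.751), of monocytes, macrophages and MHC class II (0.914) and of lymphocytes (0.907). All 12 marks rest on the same library and are not independent of each other. The class means in log2 CPM were tested in the same way, and none was marked.

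Spp1 was marked for a low value in eGFP 4 (0.787). In nsHif1a 4, Itgam (0.714), Cd14 (0.859) and the summed haemoglobin genes (0.942) were high. In nsHif1a 5, Fcgr1 (0.712) and Spp1 (0.840) were high. In 661W cells Apoe was high in nsHif1a 3 (0.944), at 4.33 CPM against 3.02 to 3.09 CPM in the other nsHif1a libraries. No member's nsHif1a effect differed between retina and 661W cells at an adjusted p under 0.05 in limma's interaction (2 at an unadjusted p under 0.05), while DESeq2 called P2ry12 (adjusted p = 0.0108). Only 11 members passed the count filter in 661W cells, P2ry12 not among them, so for the rest the interaction could not tell whether the effects differ.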

How the results depend on the processing

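The members' calls (0 higher, 0 lower in the retina) were the same with edgeR, DESeq2, voom without quality weights, other scalings, other count filters, either log2FC threshold and the lens, lymphocyte or Xist covariates. They changed where eGFP 2 was left out, alone or with nsHif1a 1, but not with the Xist covariate added. The homeostatic, identity and activated medians were 0.47, 0.56 and 0.42 with edgeR, 0.47, 0.56 and 0.41 with DESeq2 and 0.44, 0.48 and 0.35 with the replicate block. The median SE among members was 0.45, and low counts limit the precision.

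Over left-out libraries, the members called higher ranged from 0 to 10 and those called lower from 0 to 0, with 0 to 10 at an adjusted p under 0.05 by limma, and the high values came without eGFP 2. All genes called higher ranged from 137 to 313 and lower from 82 to 215. Class medians ranged from 0.33 to 0.99 (homeostatic), 0.57 to 1.495 (identity) and 0.16 to 0.90 (activated), and the activated minus homeostatic difference from -0.18 to 0.07. In 661W cells 0 to 3 members were called higher and 0 to 4 lower, and the interaction called 0 to 5. The high values in the cells and in the interaction came without nsHif1a library 3 or 4, and the cause was not tested.

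All genes called lower were 111 without quality weights, 113 without a count filter, 83 with the lens covariate and 97 with the lymphocyte covariate. Without a minimum log2FC, 625 genes were higher and 466 lower, and above 1 there were 86 and 37. With the Xist covariate 104 genes were higher, and in the 7 libraries with Xist counts 64 were higher and 76 lower. There the medians of the homeostatic and identity classes were -0.23 and -0.44 (covariate) and -0.22 and -0.43 (7 libraries), and the class difference was 0.18 and 0.17. It was -0.41 with the lens covariate and 0.20 over members under 1 CPM in 661W cells. The interaction called 1 member with DESeq2. In the retina, libraries with equal replicate numbers shared no deviation (r of -0.148 to 0.138), so they share only a number, and with a replicate block 59 genes were lower and Cybb was at -0.11. In 661W cells the replicate block changed no call among the members.

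Chosen after seeing the data, the Xist covariate without eGFP 2 gave 20 genes higher, 47 lower and a class difference of 0.18. Leaving out both eGFP 2 and nsHif1a 1 gave 15 members higher, 15 at an adjusted p under 0.05 by limma and 399 genes higher. In the members' own values, eGFP 2 was the highest of its group in 27 of 33 and nsHif1a 1 the lowest of its group in 32. Leaving out both therefore moves the groups apart, and the 15 calls are no independent evidence.

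Members whose sign turned, with their log2FC, were Cx3cr1 -0.29, P2ry12 -0.088, Tmem119 -0.16, Csf1r -0.30, Siglech -0.62, Aif1 -0.63, Ptprc -0.78, Laptm5 -0.47, Cd53 -0.45, Cd52 -0.42, Spi1 -0.86, Irf8 -0.076, Ly86 -0.42, Tyrobp -0.012, Fcer1g -0.48, Ctss -0.10, Cd68 -0.15, Trem2 -0.48, Fcgr1 -0.81, Cybb -1.31, Spp1 -0.0695, Apoe -0.088, Itgax -0.24 with the Xist covariate. In the 7 libraries with Xist counts they were Cx3cr1 -0.29, P2ry12 -0.078, Tmem119 -0.15, Csf1r -0.29, Siglech -0.62, Aif1 -0.61, Ptprc -0.78, Laptm5 -0.46, Cd53 -0.44, Cd52 -0.42, Spi1 -0.85, Irf8 -0.060, Ly86 -0.42, Tyrobp -0.00089, Fcer1g -0.47, Ctss -0.092, Cd68 -0.13, Trem2 -0.47, Fcgr1 -0.80, Cybb -1.295, Spp1 -0.062, Apoe -0.087, Itgax -0.23. With the Xist covariate and without eGFP 2 they were Siglech -0.099, Itgam -0.035, Spi1 -0.37, Fcgr1 -1.07, Cybb -0.61, Lgals3 -0.012, Spp1 -0.095, Apoe -0.085. The lymphocyte covariate turned Csf1r -0.042, Siglech -0.073, Aif1 -0.039, Trem2 -0.0013, Cybb -0.30, Lpl 0.017, and the lens covariate Lgals3 -0.088, Gpnmb -0.094. Cybb was at -0.0013 with edgeR and -0.0052 with DESeq2. Over left-out libraries, Cybb ranged from -0.10 to 1.25, Spp1 from -0.094 to 0.20, Lgals3 from -0.033 to 0.13 and Lpl from -0.10 to 0.020, and Lpl was at 0.00019 without both eGFP 2 and nsHif1a 1. None of these values passed the test.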

Other observations

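Within the eGFP group, the 3 libraries with Y-linked counts were lower in the members than both libraries with Xist counts. The mean log2 CPM of the homeostatic genes was 2.43 in eGFP 1 and 3.36 in eGFP 2, against 1.21 to 1.76 in the other 3. For the identity genes the values were 1.94 and 3.26 against 0.0587 to 0.956, and for the activated genes 3.15 and 4.04 against 2.04 to 2.89. With 2 against 3 libraries, of which 1 stood apart, this was not tested.

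Erythrocyte, pigment epithelium and lens transcripts ranked the libraries differently from the members. The summed haemoglobin genes were at 39.05 and 48.3 CPM in eGFP 1 and 2, and at 99.8 to 140 CPM in the eGFP libraries with Y-linked counts. They were at 260 CPM in nsHif1a 4 and at 40.2 to 52.9 CPM in the other nsHif1a libraries. In nsHif1a 5, the highest nsHif1a library in 19 of 33 members, the rod genes summed to 32702 CPM, the lowest of all 10 retinas, and Gfap was at 134 CPM, the highest.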
